A study of Mus musculus with 4 samples.

Results

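The genes of glycolysis and of the response to low oxygen were followed in alveolar macrophages, which patrol the airspaces of the lung, taken from wild-type mice (WT) or from mice without the transcription repressor Bach2 (Bach2KO). The group of 33 genes was fixed by name, 27 of glycolysis and its entry and exit routes and 6 of the hypoxia response, out of 19751 genes named on the array. Probes were assigned through RefSeq accessions, and the brightest probe stood for a gene. Of the 33 genes, 32 were measured, which means that in 1 genotype or both the probe stood well above background on each array. For 31 genes it was so on all 4 arrays, Slc2a3 was measured through WT alone, and Egln3 was not measured.

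The WT RNA came from 8 mice. The Bach2KO RNA came from 3 mice according to the series design text and from 4 according to the treatment protocol, and the labels give no age, strain, sorting gate or details of the Bach2 allele. Macrophages were sorted by flow cytometry, and 1 RNA sample per genotype was split in 2, amplified and labelled. The resulting arrays, 2 for WT and 2 for Bach2KO, are therefore technical repeats of pooled animals, n is 1 RNA sample per genotype, and no p-value is given.

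Glycolysis splits glucose into pyruvate in the cytosol. Glucose enters through transporters of the Slc2a family, hexokinases trap it by phosphorylation, phosphofructokinase is the main controlled step, and pyruvate is reduced to lactate or passed to the mitochondria. When oxygen is short, the prolyl hydroxylases of the Egln family no longer mark the factor Hif1a for destruction, and it switches on glucose transporters, many glycolytic enzymes and Pdk1, which holds pyruvate back from the mitochondria. Alveolar macrophages live in an oxygen-rich and glucose-poor space and depend on fatty acid oxidation more than most macrophages do.

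The core sequence that hypoxia-inducible factors bind is spelled ACGTG or GCGTG. Promoter sequences from RefSeq (build GRCm38.p6) matched 31 of the 33 genes, and Ndrg1 and Slc2a3 had no entry. In the 250 bases before the start site, on either strand, ACGTG stood in at least 1 window of 18 of the 31 genes (58.1%), against 18.5% of 27025 genes with an entry and 16.6% of 32851 single windows of that length. GCGTG stood in 20 of the 31 genes (64.5%), against 30.9% of all genes and 28.2% of all windows. The letters TGAGTCA, found in sites of Bach, Maf and AP-1 factors, stood in 1 of the 31 genes, Aldoa, against 5.16% of all genes and 4.46% of all windows. Base composition was not matched in these shares. A match is only a run of letters. The windows of 5 genes from both sides of the comparison below are shown, Slc2a1, Hk2 and Pgam1 with higher signal in Bach2KO and Pfkfb4 and Bnip3 with lower signal. They lie at chr4:119108495-119108744 on the plus strand, chr6:82774455-82774704 on the minus strand, chr19:41911621-41911870 on the plus strand, chr9:108991652-108991901 on the plus strand and chr7:138909507-138909756 on the minus strand, in that order. Each is written 5′ to 3′ and ends at the base before the start site, and capitals mark ACGTG or GCGTG on either strand, which overlap in CACGTG.
Slc2a1: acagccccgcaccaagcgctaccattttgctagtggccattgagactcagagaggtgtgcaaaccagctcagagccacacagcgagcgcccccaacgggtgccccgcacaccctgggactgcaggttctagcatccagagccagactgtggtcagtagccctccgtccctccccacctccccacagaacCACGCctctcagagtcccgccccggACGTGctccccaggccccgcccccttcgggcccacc
Hk2: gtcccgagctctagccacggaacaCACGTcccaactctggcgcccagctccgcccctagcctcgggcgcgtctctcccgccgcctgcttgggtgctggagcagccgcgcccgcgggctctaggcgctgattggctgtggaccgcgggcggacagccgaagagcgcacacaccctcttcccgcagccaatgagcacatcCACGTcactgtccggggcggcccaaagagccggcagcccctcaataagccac
Pgam1: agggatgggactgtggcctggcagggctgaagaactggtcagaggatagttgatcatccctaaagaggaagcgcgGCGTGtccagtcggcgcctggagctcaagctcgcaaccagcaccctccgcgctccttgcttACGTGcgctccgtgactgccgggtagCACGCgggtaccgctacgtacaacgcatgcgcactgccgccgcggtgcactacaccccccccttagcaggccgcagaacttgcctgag
Pfkfb4: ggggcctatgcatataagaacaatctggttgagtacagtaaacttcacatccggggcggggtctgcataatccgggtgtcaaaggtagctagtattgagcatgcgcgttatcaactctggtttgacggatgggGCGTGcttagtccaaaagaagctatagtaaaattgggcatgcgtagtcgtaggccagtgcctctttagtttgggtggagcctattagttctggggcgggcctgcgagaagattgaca
Bnip3: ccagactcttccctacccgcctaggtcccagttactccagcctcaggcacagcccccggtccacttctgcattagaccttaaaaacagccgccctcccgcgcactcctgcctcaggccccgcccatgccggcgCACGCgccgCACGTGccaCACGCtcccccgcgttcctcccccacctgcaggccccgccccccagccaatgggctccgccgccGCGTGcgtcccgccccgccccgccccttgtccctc
Counting either strand, the letters ACGTG began 36 bases before the start of Slc2a1, 52 and 226 bases before that of Hk2 and 114 bases before that of Pgam1. Bnip3, whose signal was lower, held CACGTG at 108 bases and GCGTG at 117, 99 and 35 bases, and Pfkfb4 held GCGTG alone, at 117 bases. Among the 9 genes called higher below, 4 held ACGTG (Slc2a1, Hk2, Hk3 and Pgam1) and 6 held GCGTG (Hk1, Ldhb, Pfkl, Pgam1, Slc2a1 and Slc2a6). Of the 21 matched genes that were not called in either direction, 14 held ACGTG and 13 held GCGTG.

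Signals are given as log2 of the processed spot signal minus the 75th percentile of the same array, so a value of 0 lies at that percentile. Differences are Bach2KO minus WT on this log2 scale. Each Bach2KO array was set against each WT array, and a gene counted as higher or lower if its signal moved that way by 2-fold or more in all 4 pairs, a criterion of size rather than a statistical test. By it 1324 of 15116 measured genes were higher (8.76%) and 840 lower (5.56%), so 61.2% of the calls were higher. The difference between arrays of the same RNA had an SD over genes of 0.26 in WT and 0.21 in Bach2KO, and between 27125 and 27918 of 39429 probes were well above background on an array. Scaling to the 9 spike-in probes subtracted a further 0.76 from every difference, moved the median over all genes from 0.10 to -0.66 and left 16.3% of the calls higher. Whether equal amounts of RNA were labelled is unknown, and so is whether total RNA per cell differed. Spike-in scaling is therefore not read as a correction per cell, and each direction holds relative to the other genes on the array. Differences between isoforms, which are compared within arrays, do not depend on this constant, but for dim probes they depend on the background correction. Bach2 itself gave no check of the labels. Its probe read -6.23 and -6.18 in WT and -5.03 and -8.00 in Bach2KO, was well above background on 1 array of each genotype, and where it lies relative to the deletion is not stated in the labels. Arrays of a genotype lay side by side on the same slide, and what position added cannot be told apart from genotype.

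All 15 alveolar macrophage markers were well above background on every array, 7 of them lower and 1 higher in Bach2KO, and their summed signal was 1469 and 1312 times the 75th percentile in WT and 942 and 940 times in Bach2KO. Markers of other cells differed as well. All these marker counts stand beside 8.76% of all genes called higher and 5.56% called lower, and most of the lists are short. Of 13 measured markers of monocytes and interstitial macrophages 6 were higher and 1 lower (summed signal 119 and 119 in WT, 130 and 130 in Bach2KO), with Cd163 not above background on any array. Of 10 neutrophil markers 4 were higher and 1 lower (48.8 and 47.5, 60.9 and 61.3), with Ngp not above background. Of 8 T cell markers 3 were higher and 1 lower (65.8 and 65.6, 25.9 and 25.5), with Cd247 and Trat1 not above background, and of 5 B cell markers 1 was higher (2.64 and 2.62, 3.60 and 3.46). Of 5 endothelial markers 2 were higher (15.1 and 16.2, 32.5 and 32.6), with Tek and Emcn not above background, and of 6 epithelial markers 2 were higher (2.61 and 2.67, 5.30 and 5.26), with Sftpa1 and Krt8 not above background. The sums add linear signal, so the brightest genes carry them and they do not measure cell content. Cd2, the brightest T cell marker and the lower one, had 5.85 and 5.86 in WT and 3.98 and 3.95 in Bach2KO. Csf1r and Mrc1, the brightest of the monocyte list, differed by 0.11 and -0.11. Csf3r, the brightest neutrophil marker, differed by -0.31. No measured marker of eosinophils (3), erythroid cells (2), muscle (4) or neurons (4) was called in either direction. With spike-in scaling the higher and lower counts were 0 and 8 for alveolar macrophages, 4 and 2 for monocytes and interstitial macrophages, 3 and 1 for neutrophils, 1 and 1 for T cells, 1 and 0 for endothelial cells, 0 and 1 for both muscle and neurons and 0 for the others. With that scaling 4.15% of all genes were higher and 21.2% lower. In pooled sorted cells, more cells of a type and more RNA per cell cannot be told apart, and the part of these markers in the results below was not tested.

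Glycolytic genes differed between the RNA samples mainly at the entry of glucose, at 1 phosphofructokinase subunit and at a few late enzymes. Of the 32 measured genes 9 were higher in Bach2KO, Slc2a1, Slc2a6, Hk1, Hk2, Hk3, Pfkl, Pgam1, Eno2 and Ldhb, which is 28.1% beside the 8.76% of all genes. Pfkfb4 was lower (3.12% beside 5.56%), and 22 met neither condition. The median difference was 0.47, beside 0.10 over all genes. It was 0.50 over the 27 glycolysis genes and 0.19 over the 5 measured hypoxia response genes, of which none was called. With spike-in scaling the median over the 32 genes was -0.29, with 3 genes higher (Slc2a1, Pfkl and Ldhb, beside 4.15% of all genes) and 6 lower (Slc2a3, Pfkp, Pfkfb2, Pfkfb4, Pdk1 and Bnip3, beside 21.2%). The arrays of the genotypes did not overlap for 31 of the 32 genes, beside 85.8% of all genes, with Slc16a1 the exception. Spread between arrays of 1 RNA was at most 0.30 in Bach2KO and, leaving out Ldhb (0.94), at most 0.37 in WT.

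**Figure D1:**
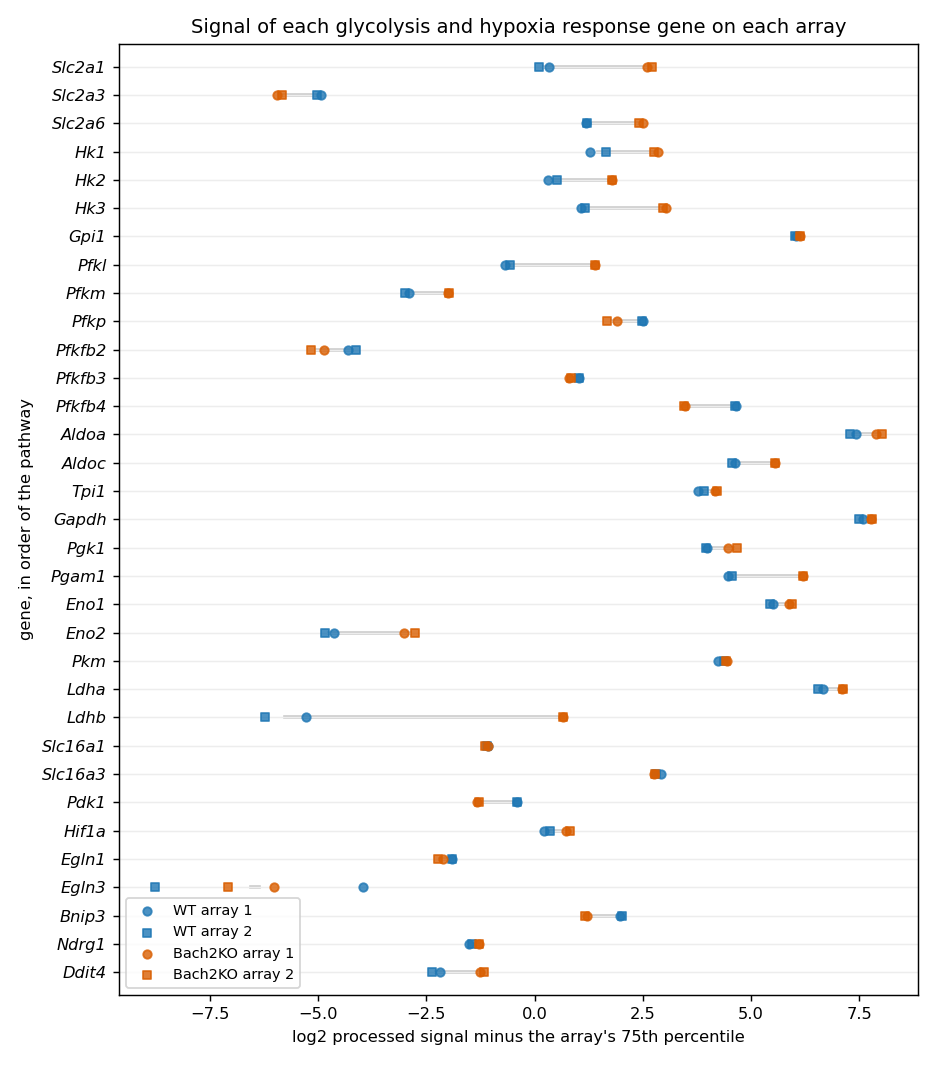
Signal of each of the 33 genes on each array (log2, relative to the array's 75th percentile), with WT arrays in blue, Bach2KO arrays in orange and a grey line between the means of the genotypes. Positions of different genes come from different probes and are not compared. The widest gap is that of Ldhb, and the arrays of Egln3 are scattered within both genotypes.

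Of the 3 glucose transporter genes 2 were higher in Bach2KO. Slc2a1 encodes GLUT1, the main basal glucose carrier, and read 0.32 and 0.10 in WT and 2.59 and 2.71 in Bach2KO. Both Bach2KO arrays lay above both WT arrays by 2.27 to 2.61, a 5.43-fold higher signal that ranked 493 among 15116 genes and remained called under all 19 alternatives. Slc2a6, a transporter of lysosomal membranes in macrophages, had signals of 1.18 and 1.22 in WT and of 2.51 and 2.42 in Bach2KO, 2.41-fold higher. Its second probe gave 1.17 against 1.27 for the first, and it fell short of the rule after median centring (1.13) and with spike-in scaling (0.51). Slc2a3, which encodes the high-affinity carrier GLUT3, went the other way, with -4.93 and -5.04 in WT and -5.95 and -5.84 in Bach2KO. It was not well above background in Bach2KO, and its difference of -0.91 met neither condition and shrank to -0.03 after normexp background correction with the 75th percentile. Within arrays, the difference of Slc2a1 exceeded that of Slc2a6 by 1.17 (0.93 to 1.41 over the array pairs).

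The 3 hexokinase genes were all higher, Hk1 and Hk2 by similar amounts and Hk3 by more. Hk1, the broadly expressed mitochondria-bound enzyme, had signals of 1.27 and 1.65 in WT and of 2.85 and 2.76 in Bach2KO, 2.54-fold higher, and its 2 probes differed by 1.34 and 1.32. Hk2, the inducible isoform, had 0.31 and 0.52 in WT and 1.80 and 1.79 in Bach2KO, 2.61-fold higher. Hk3, an isoform mostly found in myeloid cells, had 1.08 and 1.17 in WT and 3.04 and 2.98 in Bach2KO, 3.68-fold higher. The groups did not overlap for any of the 3, which was also so for 85.8% of all genes. The difference of Hk3 exceeded that of Hk1 by 0.54 and that of Hk2 by 0.50, while Hk1 and Hk2 differed from each other by -0.04, with array pairs on both sides of 0 (-0.16 to 0.08). With spike-in scaling the 3 differences were 0.58, 0.62 and 1.12, and none passed the rule in all array pairs. Median centring ended the call of Hk1 alone (1.20).

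At the phosphofructokinase step the 3 subunit genes diverged. Pfkl, the liver-type subunit, had signals of -0.69 and -0.58 in WT and of 1.39 on both Bach2KO arrays, 4.05-fold higher, and remained called under all 19 alternatives. Pfkm, the muscle-type subunit, had -2.90 and -3.01 in WT and -2.01 and -1.99 in Bach2KO. Its array pairs ran from 0.90 to 1.02, so it stood at the edge of the rule and met neither condition. Pfkp, the platelet-type subunit, had 2.50 and 2.49 in WT and 1.91 and 1.68 in Bach2KO, a difference of -0.69 that met neither condition. The second, dimmer probe of Pfkp gave -0.21. With the brightest probes, the difference of Pfkl exceeded that of Pfkp by 2.71 (2.53 to 2.89 over the array pairs) and that of Pfkm by 1.06 (0.95 to 1.18). Pfkl thus stood apart from Pfkp in every array pair by more than the rule's 2-fold. Of 4 measured muscle markers, given beside the muscle subunit, none was called (1 lower with spike-in scaling).

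The genes of the bifunctional enzymes that make and remove the activator of phosphofructokinase were lower or near 0. Pfkfb4 had signals of 4.67 and 4.64 in WT and of 3.47 and 3.45 in Bach2KO, 2.29-fold lower, the lowest difference among the measured members. Its second probe, which was dimmer, gave -0.41, and the mean of the probes (-0.80) ended the call. Pfkfb2 had -4.31 and -4.13 in WT and -4.87 and -5.18 in Bach2KO, and its difference of -0.81, not called, was -0.18 after normexp correction with the 75th percentile. Pfkfb3, the isoform with the highest kinase activity, differed by -0.20, and its second probe by -0.15. Pfkfb1, outside the fixed group, differed by -0.94 and met neither condition.

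Gpi1, which acts before phosphofructokinase, and the enzymes after it up to pyruvate had positive differences, which for 7 of them turned negative with spike-in scaling, and Pgam1 and Eno2 alone met the rule. Gpi1, which turns glucose phosphate into fructose phosphate, differed by 0.11, and its 3 probes gave 0.11 to 0.20. Aldoa, the main aldolase, differed by 0.60, and Aldoc, the brain-type aldolase, had signals of 4.63 and 4.56 in WT and of 5.55 on both Bach2KO arrays, with array pairs from 0.92 to just under the 2-fold of the rule. Tpi1 differed by 0.35, Gapdh by 0.24 (0.04 to 0.24 over its 7 probes), Pgk1 by 0.62 and Eno1 by 0.45, and Pkm, the pyruvate kinase of macrophages, by 0.13. None of these met a condition, and with spike-in scaling Gpi1, Aldoa, Tpi1, Gapdh, Pgk1, Eno1 and Pkm turned negative, between -0.65 and -0.14, whereas Aldoc was 0.20. With median centring Gpi1 and Pkm also turned slightly negative (-0.03 and -0.01), as did Gpi1, Gapdh and Pkm with quantile normalization (-0.11, -0.06 and -0.01). Gpi1 and Gapdh did so with normexp and quantile normalization (-0.10 and -0.004). Probes of abundant enzymes such as Gapdh, Eno1 and Pgam1 may also bind transcripts of near-identical copies in the mouse genome.

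Pgam1 moves the phosphate of phosphoglycerate, between the steps of Pgk1 and the enolases. Its signals were 4.46 and 4.57 in WT and 6.20 and 6.21 in Bach2KO, 3.23-fold higher, and the call was lost with spike-in scaling (0.93). Eno2, the neuron-type enolase, had -4.63 and -4.85 in WT and -3.01 and -2.77 in Bach2KO, 3.62-fold higher. Its signal was low, and with normexp background correction, which compresses dim probes, the difference was 1.05 with the 75th percentile and 0.81 with quantile normalization, and the call was lost, as it was with spike-in scaling (1.10). The difference of Eno2 exceeded that of Eno1 by 1.40 (1.24 to 1.56). It did so by less after the 2 normexp corrections, where Eno1 differed by 0.46 and 0.29. Of 4 neuron markers none was called (1 lower with spike-in scaling), and the 2 brightest, Syp and Snap25, differed by -0.06 and -0.48. Of the muscle isoforms outside the fixed group, Pgam2 was 2.28-fold higher and Eno3 2.09-fold lower. Pgam2 was not called with median centring (1.05), quantile normalization (1.03), spike-in scaling (0.43) or normexp correction with the 75th percentile (0.78), and Eno3 was not called with the last of these (-0.94).

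Ldhb showed the largest difference of all 33 genes. Lactate dehydrogenase is a tetramer of Ldha and Ldhb subunits, of which Ldhb-rich forms are known to favour the oxidation of lactate. Ldhb read -5.29 and -6.23 in WT and 0.67 and 0.66 in Bach2KO. The WT arrays were 0.94 apart, and both Bach2KO arrays lay above them by 5.95 to 6.89, an 85.8-fold higher signal that ranked 59 of 15116 genes. After normexp correction the difference was 4.51 with the 75th percentile and 4.37 with quantile normalization, and the call remained under all 19 alternatives. The size therefore depends on how the dim WT signal is corrected. Ldha had 6.66 and 6.55 in WT and 7.10 and 7.12 in Bach2KO, a difference of 0.50 that met neither condition (0.43 to 0.50 over its 3 probes) and was -0.26 with spike-in scaling. Within arrays the difference of Ldhb exceeded that of Ldha by 5.92 (5.49 to 6.35). It did so by less after the 2 normexp corrections, where Ldha differed by 0.48 and 0.28. Ldhd, an enzyme of the other lactate stereoisomer, was 2.96-fold higher, with -1.81 and -1.80 in WT and -0.16 and -0.31 in Bach2KO, and was not called with spike-in scaling (0.81). Ldhb is also expressed in lymphocytes, and the T cell markers Cd3d and Cd3g, not well above background in WT, were at least 6.31-fold and 2.74-fold higher in Bach2KO, while Cd2 was 3.72-fold lower. After normexp correction with the 75th percentile the log2 differences of Cd3d and Cd3g were 1.19 and 0.86, below those bounds and not called, and Cd3g was not called with spike-in scaling either. The part of these cells in the Ldhb difference was not tested.

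The carriers that move lactate across the plasma membrane differed little. Slc16a1, which encodes MCT1, had -1.08 and -1.10 in WT and -1.09 and -1.14 in Bach2KO, the only measured member whose genotypes overlapped. Slc16a3, the lactate exporter MCT4 and a hypoxia target, had 2.91 and 2.82 in WT and 2.77 and 2.79 in Bach2KO, and both of its probes differed by -0.09. With spike-in scaling both genes were lower, by -0.78 and -0.85, and not called. Their chaperone Bsg differed by 0.28, and Slc16a7, another carrier outside the fixed group, by -1.19 without meeting the rule.

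**Figure D2:**
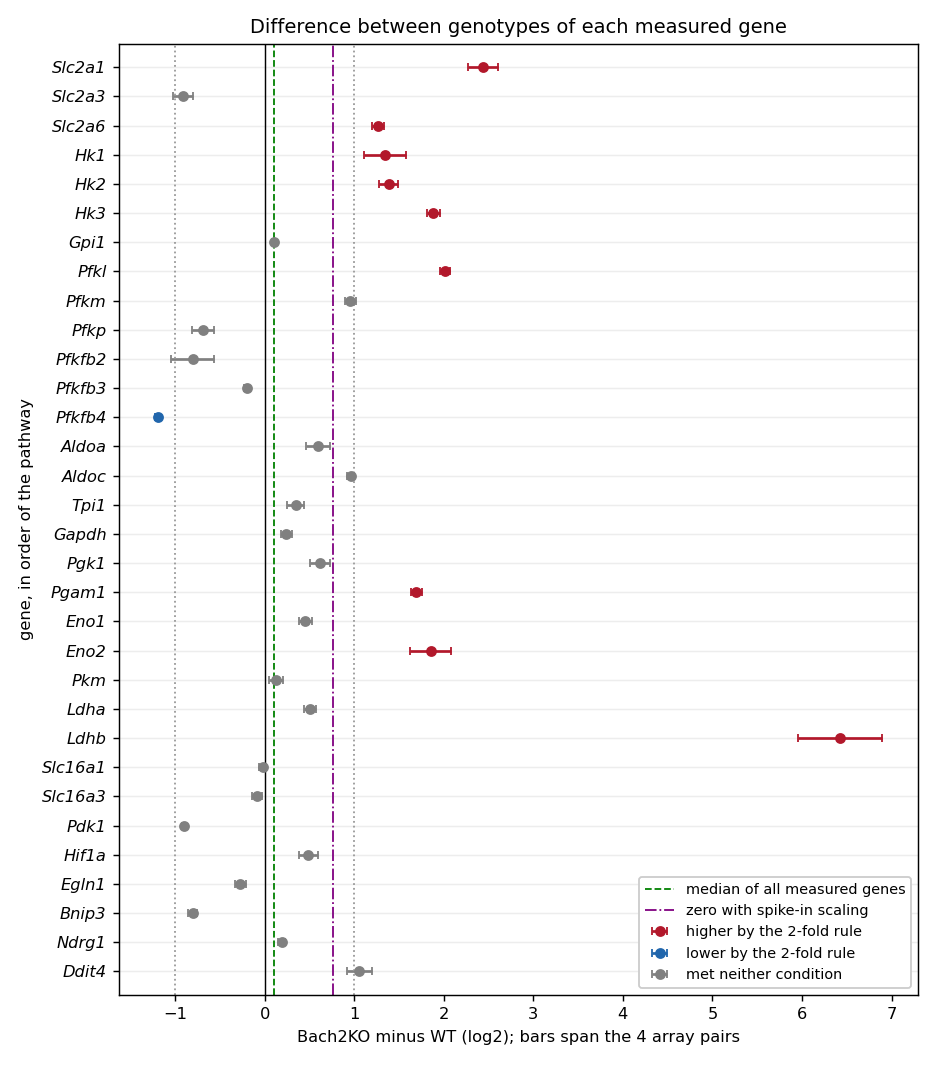
Difference between genotypes (log2, Bach2KO minus WT) of the 32 measured genes in pathway order, with bars that span the 4 array pairs, red for genes called higher, blue for lower and grey for neither. Dotted lines mark 2-fold, the green dashed line the median of all genes (0.10) and the purple line the zero that spike-in scaling would give (0.76). Hexokinases and Pfkl lie right of 1, Pfkfb genes and Pdk1 left of 0, and Ldhb far to the right.

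None of the 5 measured hypoxia response genes met the rule. Hif1a, the oxygen-regulated subunit of the factor, had 0.22 and 0.35 in WT and 0.73 and 0.81 in Bach2KO, and its difference of 0.49, not called, turned to -0.27 with spike-in scaling. Egln1, the main oxygen-sensing hydroxylase, differed by -0.27. Pdk1, counted here with the glycolysis genes, encodes the kinase that inactivates pyruvate dehydrogenase and is a classical target of Hif1a. It had -0.41 and -0.40 in WT and -1.33 and -1.29 in Bach2KO, with array pairs from -0.93 to -0.88. Its difference of -0.90 met neither condition. It was called lower with spike-in scaling (-1.66). Bnip3, a mitophagy receptor induced by low oxygen, had 1.96 and 2.01 in WT and 1.21 and 1.16 in Bach2KO, a difference of -0.80. Its other 2 probes gave -1.11 and -1.24, each at least 2-fold lower in every array pair, so the mean of the probes called it lower (-1.05).

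Ddit4 (REDD1), an inhibitor of mTORC1 induced by low oxygen and other stress, had -2.18 and -2.37 in WT and -1.26 and -1.18 in Bach2KO. Its array pairs ran from 0.91 to 1.19, and without WT array 1 it was called higher (1.15). Ndrg1, a stress-induced gene often used as a hypoxia marker, differed by 0.19. Egln3, a hydroxylase that is itself a target of Hif1a, had -3.96 and -8.76 in WT and -6.01 and -7.10 in Bach2KO. Only 1 array of each genotype was well above background, and the call of Egln3 as lower without WT array 2 (-2.60) rests on WT array 1 alone. Its other probe was not above background on any array. The difference of Ddit4 exceeded that of Bnip3 by 1.86 (1.67 to 2.05).

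Regulators of the factor itself were mostly close to 0, with large exceptions. Of 12 measured genes of the hypoxia factor pathway outside the fixed group, 2 were higher (16.7% beside 8.76% of all genes) and none lower (beside 5.56%). Their median was 0.03, beside 0.10 over all genes. With spike-in scaling the median was -0.73, beside -0.66 over all genes. In that setting 2 were higher and 3 lower, beside 4.15% and 21.2% of all genes. Epas1, which encodes the second oxygen-regulated subunit, HIF-2 alpha, had 2.34 and 2.41 in WT and 5.88 and 5.86 in Bach2KO, 11.3-fold higher. Arnt2, a partner subunit best known in neurons, was not well above background in WT (-8.24 and -8.60) and had -0.42 and -0.53 in Bach2KO, at least 54.8-fold higher. For that bound each WT array entered with the probe's signal or, where larger, with the faintest signal still well above background there. The common partner Arnt, the ubiquitin ligase subunit Vhl and the hydroxylase Egln2 differed by -0.02, -0.06 and 0.07. Both calls remained with spike-in scaling. After normexp correction with the 75th percentile the difference of Arnt2 was 3.996 on the log2 scale, still called but below the bound above, so its size depends on how the dim WT signal is corrected. Epas1 is also an endothelial gene, and 2 of 5 measured endothelial markers were higher, Cdh5 21.8-fold and Vwf 2.63-fold, whereas Kdr differed by 0.37 and Tek and Emcn were not above background. The log2 difference of Cdh5 went from 4.45 to 2.53 after normexp correction with the 75th percentile, and Vwf was not called with spike-in scaling (0.63). Their part in the Epas1 difference was not tested.

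Of 29 other measured hypoxia response genes 4 were higher (13.8% beside 8.76%) and 2 lower (6.90% beside 5.56%), with a median of 0.42, and of -0.34 with spike-in scaling. Ier3, an early response gene that limits apoptosis, was 12.9-fold higher, with -3.25 and -3.03 in WT and 0.57 and 0.53 in Bach2KO. The mitochondrial adenylate kinase gene Ak4 was 3.99-fold higher, from low signals of -5.79 and -5.57 to -3.70 and -3.67 (0.96 and not called after normexp correction with the 75th percentile), and the collagen prolyl hydroxylase gene P4ha2, not well above background in WT, was at least 2.01-fold higher, a call of P4ha2 that was lost with median centring, quantile normalization, spike-in scaling and normexp correction with the 75th percentile (0.86). In the other direction Angptl4, which inhibits lipoprotein lipase and is a target of both hypoxia factors and PPARs, was lower by -1.63, with 5.56 and 5.57 in WT and 3.96 and 3.91 in Bach2KO. The list held members on both sides.

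Neighbouring carbon routes differed at single enzymes. Over the 8 neighbouring lists, the share of measured genes called higher ran from 0% to 16.7% beside 8.76% of all genes, and the share called lower from 0% to 11.8% beside 5.56%. Fbp1, which reverses the phosphofructokinase step in gluconeogenesis, had signals of -2.50 and -2.60 in WT and of 3.83 and 3.77 in Bach2KO, 81.5-fold higher. Of 18 measured genes of gluconeogenesis and glycogen 3 were higher and 1 lower, with a median of 0.35, and of -0.41 with spike-in scaling. Besides Fbp1, the glycogen branching enzyme gene Gbe1 was 5.04-fold higher. Ppp1r3d, a glycogen-targeting subunit of protein phosphatase, was 3.63-fold lower. None of 8 pentose phosphate genes was called (median 0.24), with Taldo1 and Tkt, the 2 brightest, at -0.17 and 0.27. With spike-in scaling their median was -0.51 and 1 was lower, beside 21.2% of all genes.

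At the entry of pyruvate into mitochondria, 2 of 13 measured genes were higher (15.4% beside 8.76% of all genes) and 1 lower (7.69% beside 5.56%). The median was 0.23 (-0.52 with spike-in scaling). Pcx, the pyruvate carboxylase gene, was 3.57-fold higher, and Mpc1, a subunit of the mitochondrial pyruvate carrier, 2.24-fold higher, both not called with spike-in scaling (1.08 and 0.40). Mpc1 was also not called with median centring (1.02) or quantile normalization (0.98), and the other carrier subunit gene Mpc2 differed by -0.85. Pdk3, a further kinase of pyruvate dehydrogenase, had 0.54 and 0.52 in WT and -0.67 and -0.62 in Bach2KO, 2.26-fold lower, beside the difference of -0.90 for Pdk1, whereas Pdk2 and Pdk4 differed by -0.13 and -0.32. Of 10 genes of the shuttles that carry cytosolic NADH equivalents 1 was higher and 1 lower, 10% each and near the 8.76% and 5.56% of all genes (median 0.14, and -0.62 with spike-in scaling). Got1, the cytosolic aspartate aminotransferase, was 4.75-fold higher and Gpd1, the cytosolic glycerol phosphate dehydrogenase, 2.83-fold lower.

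Among 18 genes that regulate glucose use and mTOR signalling, 2 were higher (11.1% beside 8.76% of all genes) and 1 lower (5.56%, as over all genes). Their median was 0.13, or -0.63 when scaled to the spike-ins. Rragd, a GTPase that recruits mTORC1 to lysosomes, was 3.04-fold higher, a call of Rragd that was lost with spike-in scaling (0.84). Txnip, which restrains glucose uptake through GLUT1, was 3.00-fold lower, with 4.52 and 4.55 in WT and 2.95 and 2.94 in Bach2KO. Its relative Arrdc4 differed by -0.16 and Myc by -0.72. Of 17 measured isoforms and partners of glycolysis outside the fixed group, 2 were higher (Ldhd and Pgam2) and 2 lower (Eno3 and Slc2a9). That is 11.8% each, beside 8.76% and 5.56% of all genes, and the median was -0.06. Slc2a9, a urate and hexose carrier gene, was 2.18-fold lower, but -0.77 and not called after normexp correction with the 75th percentile. With spike-in scaling none of the 17 was higher and 5 were lower, beside 4.15% and 21.2% of all genes.

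**Figure D3:**
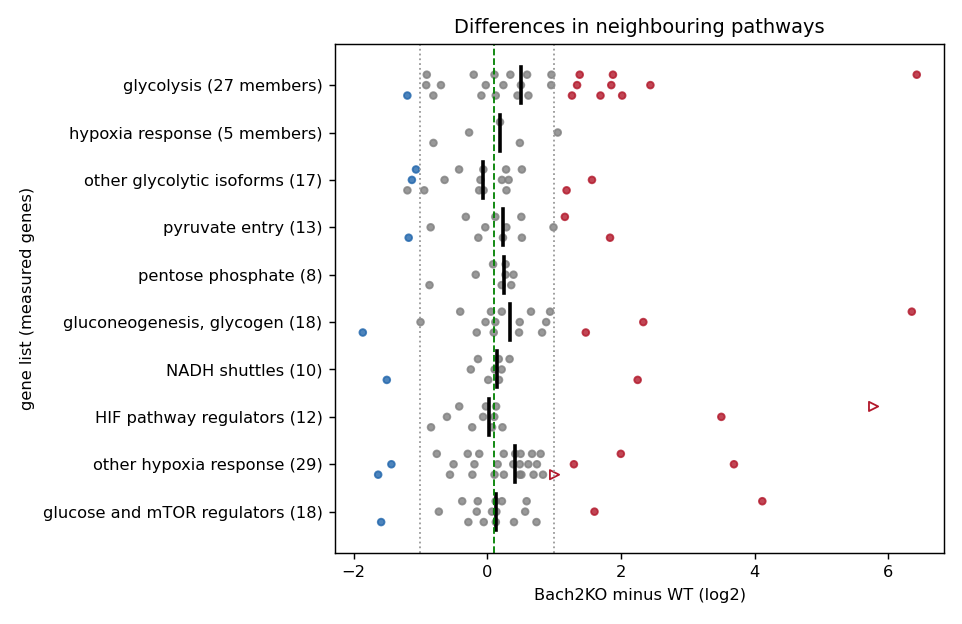
Differences (log2, Bach2KO minus WT) of the measured genes of glycolysis, of the hypoxia response and of 8 neighbouring lists, with red for genes called higher, blue for lower and grey for neither. Open triangles mark genes known only as a lower bound, black bars list medians, the green line the median of all genes and dotted lines 2-fold. Glycolysis holds 9 red points, with Ldhb at 6.42, and Fbp1 at 6.35 stands apart in its list.

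The number of genes past the rule depended on the scaling. Median centring gave 7 higher and 2 lower of the 32 (beside 7.4% and 6.61% of all genes) and quantile normalization 9 and 2 (beside 7.83% and 6.26%), and Slc2a3 was the added lower gene in both. Slc2a1, Pfkl and Ldhb were called higher under each of the 19 alternatives, Hk3 and Pgam1 under 18, Hk2 under 17, and Slc2a6, Hk1 and Eno2 under 16. Pfkfb4 was called lower under 17. These counts overstate stability, because some alternatives could not end a call. The 1.5-fold threshold and the rule on array means relax the criterion. The replicate block and leaving out an array keep only part of its pairs. The other filters on dim probes kept all of these genes. The deposited table and keeping outlier spots gave almost the same values. Relative to the median gene, which no scaling by a constant alters, Ldhb stood at 6.32, Slc2a1 at 2.34, Pfkl at 1.92 and Hk3 at 1.78. Eno2 followed at 1.75, Pgam1 at 1.59, Hk2 at 1.28, Hk1 at 1.24 and Slc2a6 at 1.17. The sizes for Ldhb and Eno2 depend on the background correction. On the same relative scale the 4 lowest genes above background on all arrays were Pfkfb4 at -1.29, Pdk1 at -1.004, Pfkfb2 at -0.91 and Bnip3 at -0.90.

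**Figure D4:**
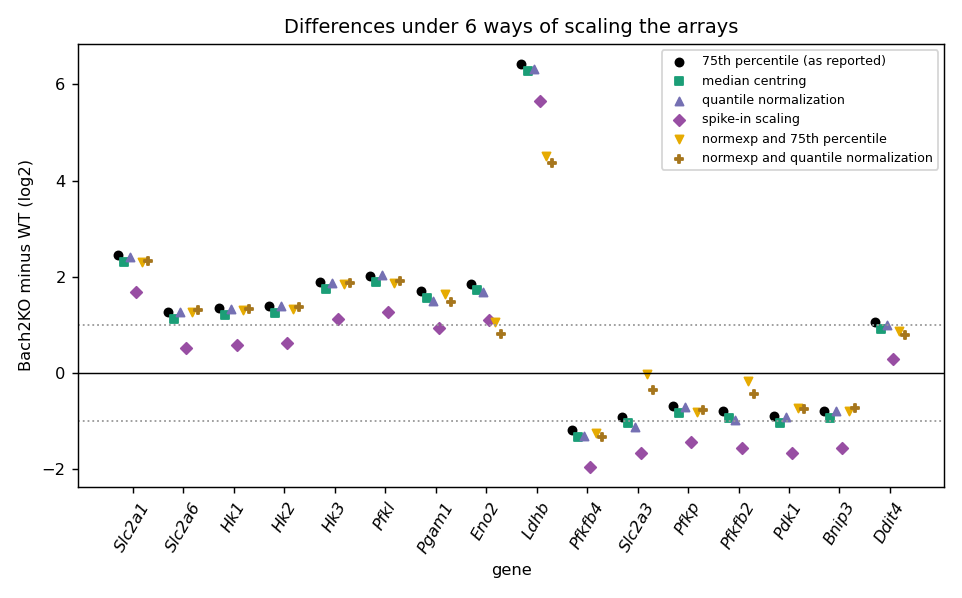
Difference (log2, Bach2KO minus WT) of 16 genes under 6 combinations of background correction and scaling between arrays, 1 marker shape for each. Dotted lines mark 2-fold. Spike-in scaling (diamonds) lies 0.76 below the reported values for every gene, and normexp correction moves the dim Ldhb, Eno2, Slc2a3 and Pfkfb2 most.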

How the data were processed

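The 4 arrays were 1-colour Agilent arrays of amplified RNA from sorted alveolar macrophages, 2 per genotype, grouped by sample title. Linear spot intensity was extracted with Agilent software of version 10.7.3.1 per the file headers, or 9.1 per the submitters' processing notes. Per the file headers the intensity had been background-subtracted within each array but not scaled across arrays. In the authors' deposited log2 table, every column differed from log2 of that array's processed signal by a constant near that array's 75th percentile, with an SD of the difference of at most 3.54e-07 for probes with 1 spot. Its column medians were -3.58, -3.67, -3.53 and -3.45, genes were not centred, and higher values mean brighter probes. The quality flags in the scanner files were used as deposited by the authors.

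Control spots and outlier spots (109 to 136 of 43020 per array) were left out, and replicate spots were averaged as log2 values. No spot was saturated (0 of 43020). The 75th percentile over probes was subtracted. Symbols came through unversioned accessions from a RefSeq table of assembly GRCm38.p6, and of 39429 probes 26055 had 1 symbol, 0 several and 13374 none. Probe coordinates, of build mm9, are not given. Bounds and calls are described with the results. Arrays of a genotype share 1 RNA sample, so no test was run, and the number of arrays limits the precision.

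Members, lists and alternatives were chosen with earlier results of these data known. Named genes were Bach2, the 33 members, up to 4 called genes per pathway list (or the 2 brightest) and up to 3 called genes and the 2 brightest per marker list. A few list genes are counted but not reported here by name. Other list genes named beside them were chosen after their values were seen. Alternatives were other scalings (median, quantile with and without normexp at an offset of 50, spike-in), the deposited table, other filters, thresholds of 1.5-fold and 3-fold, other rules per probe and pair, and leaving out each array. Normexp used median spot signals. The percentile over spots in place of probes was added after seeing the data. limma 3.58.1 in R 4.3.3 was used for normexp. The rule was run on simulated data with noise set by the 2 WT arrays and every probe above background. Such data cannot show variation between animals or how the rule treats dim probes.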

Additional observations from a re-analysis of the deposited data

How the results depend on the processing

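Under the 18 other settings and the 1 added after seeing the data, no called member changed direction. With spike-in scaling 3 members were higher and 6 lower with a median of -0.29, the sole alternative that turned the sign of the median, and 627 of all genes were higher and 3212 lower. The median over members was 0.33 with median centring, 0.24 with quantile normalization, 0.27 with normexp and quantile normalization and 0.43 with the 75th percentile over spots. Median centring and quantile normalization gave 2 lower members each. Over all genes, normexp and quantile normalization gave 846 higher. A 1.5-fold threshold gave 12 higher and 4 lower members and 2371 higher and 1787 lower genes, and a 3-fold threshold gave 6 and 0 members and 720 and 388 genes. Leaving out 1 array in turn gave medians from 0.42 to 0.50, 9 to 10 members higher and 1 to 2 lower, and the second lower member without WT replicate 2 was Egln3. The replicate block, which keeps only the pairs of arrays with the same number, gave 9 members higher and 1 lower, and 1360 and 868 genes. It changed no member's call, and as part of the same pairs it could not end one. The numbers mark labelling reactions of 1 RNA sample, not paired animals. Causes of these shifts were not tested. Signal over background limits Egln3, Slc2a3, Pfkfb2, Eno2 and the WT value of Ldhb.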
